A study of Mus musculus with 6 samples.

Results

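Bone mineralization depends on enzymes that supply phosphate to the collagen matrix and on proteins that control where crystals form. This account covers 8 such genes, namely Alpl, Phospho1, Enpp6, Smpd3, Dmp1, Fam20c, Phex and Ifitm5, of the 1285 genes in the authors' deposited table. They were picked by name from that table with its values known, so their ratios and p-values describe the choice and support nothing further. Mesenchymal stem and progenitor cells (MSPCs) are the stromal cells of bone marrow that help to maintain blood stem cells and can form bone, cartilage and fat. Each library came from 2000 MSPCs of mice aged 8 weeks, sorted as CD45-, Ter119-, CD31- and Nes-GFP+, where Nes-GFP is a fluorescent transgene under nestin regulatory sequences. Of 6 libraries from littermates, 3 were labelled control and 3 Snai2-/-, and both genotypes were sorted by that transgene. How the Snai2 allele was made and which genotype the controls carried are not stated in the labels. Snai2 encodes Slug, a zinc-finger repressor of the Snail family, and the study asked how its loss alters these cells and their expression of osteopontin.

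The values are the authors' least-squares mean of each group, the ratio of those means (Snai2-/- over control), a p without adjustment and its step-up adjusted value, the false discovery rate (FDR). Values of single libraries and their read totals were not analysed here, so no value below carries an error, a sample-by-sample spread or a depth. Whether 1 library sets any of these means is therefore unknown. How the values were normalized is not stated in the labels or file headers. Since that step may or may not account for gene length, levels are not compared between genes. Sums of means over several genes, given below, weight each gene by a level of unknown scale and are descriptions only. In the authors' deposited table the Snai2 mean was 636 for control libraries and 9.20 for Snai2-/- libraries, giving a ratio of 0.0145. None of the 16718 genes tested reached an FDR below 0.05 in the authors' deposited table (0%), and the lowest FDR listed was 0.0758, that of Snai2. Only genes whose unadjusted p was below 0.05 are in the table, which is 7.69% of the genes tested, 3.77% higher and 3.91% lower in Snai2-/- cells.

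Mineral forms first inside and around matrix vesicles shed by osteoblasts and hypertrophic chondrocytes, and then spreads along collagen. Pyrophosphate outside the cell blocks crystal growth, and tissue-nonspecific alkaline phosphatase, the product of Alpl, removes it and yields phosphate. Inside vesicles the phosphatase encoded by Phospho1 takes phosphate from phosphocholine, which Enpp6 and Smpd3 can release from choline lipids. Dmp1, Fam20c and Phex act in matrix and in phosphate balance, and inherited loss of any of them disturbs both. Ifitm5 encodes a bone-restricted membrane protein, and dominant mutations of its human counterpart cause a form of osteogenesis imperfecta.

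No binding data were used here. Snail-family repressors recognise the E-box CAGGTG, so sequences before the start sites were read from RefSeq's promoter windows on GRCm38.p6. A window covers 250 bases before to 50 after a start, and 9 windows were found for the 7 genes other than Smpd3, with 2 starts each for Alpl and Dmp1. CAGGTG or its complement CACCTG lay in 3 of the 9 windows, against 20.2% of all 32851 windows. The 3 belonged to Dmp1, Alpl and Fam20c, the last 43 bases after the start. Shown first are the stretches before the downstream starts of Dmp1 (chr5:104202367-104202612, plus strand) and Alpl (chr4:137766476-137766725, minus strand), which hold that E-box. The stretch before Ifitm5 (chr7:140950292-140950493, minus strand) follows because this gene had a large ratio without such an E-box, and that before Phex (chrX:157415313-157415536, minus strand) because Phex was the gene with a lower mean. Capitals mark CAGGTG or CACCTG, the RUNX core TGTGGT or ACCACA, and the GC box GGGCGG or CCGCCC, and bases in annotated exons were left out.
Dmp1: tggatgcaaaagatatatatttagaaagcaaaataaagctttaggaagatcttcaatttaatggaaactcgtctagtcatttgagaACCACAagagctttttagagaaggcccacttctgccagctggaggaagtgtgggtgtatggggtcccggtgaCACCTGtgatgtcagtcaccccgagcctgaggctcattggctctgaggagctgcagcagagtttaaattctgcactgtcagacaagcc
Alpl: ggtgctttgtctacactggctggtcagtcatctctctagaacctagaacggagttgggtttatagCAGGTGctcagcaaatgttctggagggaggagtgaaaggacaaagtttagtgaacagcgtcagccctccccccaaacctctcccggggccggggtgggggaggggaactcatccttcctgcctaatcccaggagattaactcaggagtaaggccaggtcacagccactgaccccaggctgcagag
Ifitm5: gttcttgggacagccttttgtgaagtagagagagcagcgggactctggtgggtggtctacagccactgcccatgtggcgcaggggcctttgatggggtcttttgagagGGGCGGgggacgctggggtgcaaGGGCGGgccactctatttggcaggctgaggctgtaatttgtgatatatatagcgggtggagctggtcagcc
Phex: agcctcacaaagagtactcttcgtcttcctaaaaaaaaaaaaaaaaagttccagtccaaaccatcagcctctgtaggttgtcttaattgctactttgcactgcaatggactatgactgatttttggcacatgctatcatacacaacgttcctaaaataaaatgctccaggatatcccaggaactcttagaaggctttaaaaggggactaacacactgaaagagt

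In the Dmp1 stretch the CACCTG began 92 bases and the ACCACA 164 bases before the RefSeq start. The CAGGTG of the Alpl stretch began 185 bases before the downstream of its 2 starts. The RUNX core was found in 1 of the 9 windows, that of Dmp1, against 16.8% of all windows. GC boxes were found in 4 of the 9, those of Alpl (upstream start), Phospho1, Fam20c and Ifitm5, against 35.7% of all windows. The looser E-box CANNTG, which includes CAGGTG, was in 8 of the 9 windows and in 72.3% of all windows. Enpp6 held none of these motifs in its window. The stretches, with annotated exon bases left out, differed widely in base composition. Their GC content was 75.5% before Phospho1, 58.9% before Ifitm5, 45.9% before the downstream Dmp1 start, 38.8% before Phex and 38.4% before Enpp6. The median was 52.4% for the upstream bases of all windows, for which no removal of exon bases is stated. A match is a description of letters, and neither binding by SNAI2 nor its absence follows from it. The Fam20c stretch lies within an exon of the GENCODE annotation and is therefore not shown.

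**Figure D1:**
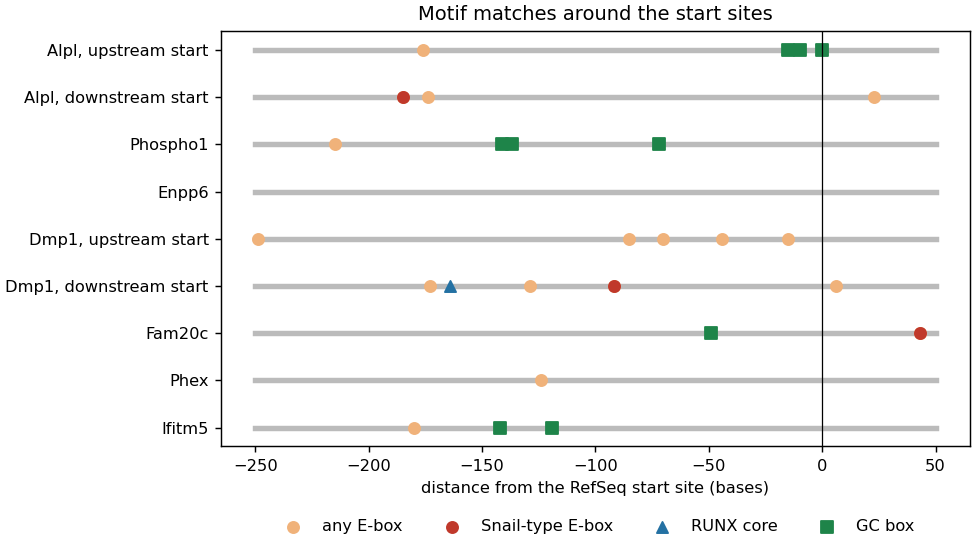
Motif matches in the 9 RefSeq promoter windows. The x axis is the distance in bases of a match's first base from the RefSeq start site, each grey bar is a window, and symbols give the motif class. The Snail-type E-box appears in 3 windows, 92 bases before the downstream Dmp1 start, 185 bases before the downstream Alpl start and 43 bases after the Fam20c start.

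Of the 8 genes, the mean was higher in Snai2-/- cells for 7 and lower for 1, where 49.1% of all listed genes were higher. The 8 had a median log2 ratio of 2.39, from -1.28 for Phex to 3.13 for Phospho1, against a median of -0.36 over all 1285 listed genes. Each of the 8 differed by at least 2-fold, as did 45.9% of the listed genes, and 5 differed by at least 4-fold, as did 19.6%. Their unadjusted p ran from 7.66e-04 for Fam20c to 0.0461 for Smpd3 in the authors' deposited table, and their FDR from 0.272 to 0.64. None of the 8 passed an FDR of 0.05. An FDR below 0.5 was given for 3 of them (Fam20c, Ifitm5 and Dmp1), as for 42.8% of the listed genes, and an unadjusted p below 0.02 for the same 3, as for 48.9%. Smpd3 lay nearest to the p limit of 0.05 at which the table ends, with rank 1205 of 1285 by p.

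**Figure D2:**
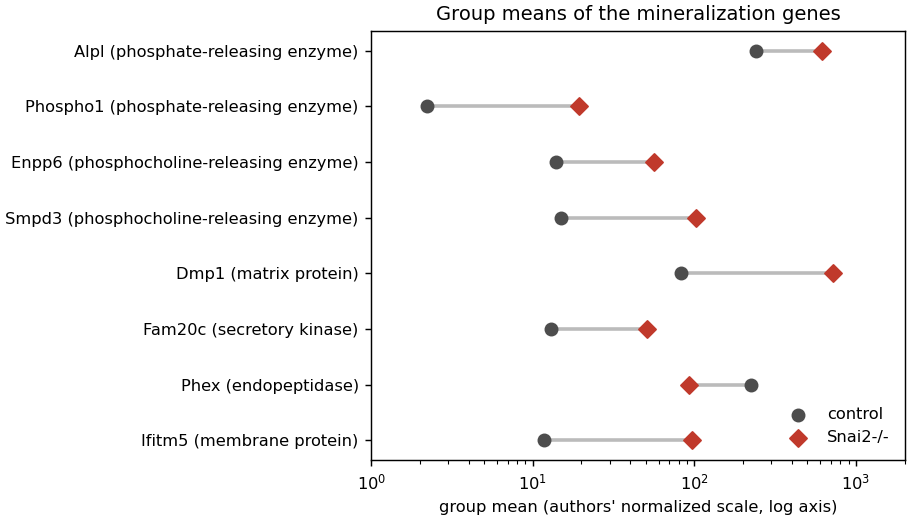
Group means of the 8 genes on a log axis, in the authors' normalized units, with 1 point for control (circle) and 1 for Snai2-/- (diamond) per gene and no error available. The diamond lies to the right of the circle for 7 genes and to the left for Phex, whose mean was 223 in control and 92.2 in Snai2-/- cells.

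Alpl and Phospho1 encode the phosphatases that release phosphate outside and inside matrix vesicles. Alpl lies on GRCm38 chromosome 4, from 137741733 to 137796384 on the minus strand. In the authors' deposited table its mean was 241 for control and 618 for Snai2-/- cells. The ratio taken from the authors' deposited table was 2.56 (p = 0.0261, FDR 0.574), the smallest among the 7 genes that were higher. Phospho1 (chromosome 11, 95824499 to 95832140, plus strand) stood at 2.22 and 19.4 in the authors' deposited table. Its ratio of 8.74 (p = 0.0213, FDR 0.539 in the authors' deposited table) was the largest of the 8 and 3.41 times that of Alpl. With 10 added to both means its ratio was 2.41, below that of Alpl computed the same way, 2.50.

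Phospho1 also shares sequence with its neighbours in the annotation. Of its 2029 exon bases, 1708 (84.2%) lie in exons of Abi3 on the opposite strand and 1818 (89.6%) in exons of Zfp652 on the same strand. The library chemistry named in the labels does not mark strand, so reads from Phospho1 and Abi3 cannot be told apart by strand where they overlap. Strand would not separate Zfp652 from Phospho1 in any case. These overlaps are those of GENCODE M21, and the annotation behind the authors' means is not stated. Abi3, which encodes an adaptor of the actin cytoskeleton, had the opposite direction, its mean being 5.12 for control and 2.62 for Snai2-/- libraries in the authors' deposited table. Zfp652 was not listed, so either its p was 0.05 or more or it was not tested. Adding the means of Phospho1 and Abi3, a step chosen after the overlap was seen, gave 7.34 for control and 22.0 for Snai2-/-, or a ratio of 3.0. That sum leaves out Zfp652, which has no listed mean, so it does not correct the Phospho1 ratio for the overlap.

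Enpp6 and Smpd3 encode the enzymes that release phosphocholine, the first from choline-containing lysolipids and glycerophosphocholine and the second from sphingomyelin. Enpp6 (chromosome 8, 46986887 to 47096762, plus strand) was listed by the authors' deposited table at 13.9 for control and 56.6 for Snai2-/-, with a ratio of 4.06 (p = 0.024, FDR 0.562). Smpd3 (chromosome 8, 106252548 to 106337988, minus strand) was listed by the authors' deposited table at 15.02 and 102.2, with a ratio of 6.80 (p = 0.0461, FDR 0.64). Both of these genes and that of the phosphatase that consumes phosphocholine, Phospho1, thus had higher means in Snai2-/- cells. Prmt7, an arginine methyltransferase gene on the other strand, shares 247 of the 5232 exon bases of Smpd3 (4.72%) and stood at 25.8 and 33.7 in the authors' deposited table. Adding the means of Smpd3 and Prmt7 gave a ratio of 3.33. That sum counts all of Prmt7 although little sequence is shared, so it does not correct the Smpd3 ratio. Enpp6 shares no exon base with another annotated gene.

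Dmp1 encodes an acidic phosphoprotein of osteocytes and late osteoblasts that binds calcium and collagen. In the authors' deposited table its mean was 83.1 for control and 716 for Snai2-/- libraries. The authors' deposited table gave a ratio of 8.62 (p = 0.0124, FDR 0.473). Dmp1 (chromosome 5, 104202613 to 104214102, plus strand) lies in a cluster of genes for related mineral-binding proteins, with Dspp 22486 bases before it and Ibsp, Mepe and Spp1 85069, 111227 and 221016 bases after it. Of these neighbours, only Spp1, the osteopontin gene, was listed, at a ratio of 2.48 (FDR 0.65) in the authors' deposited table. Dspp, Ibsp and Mepe were not listed.

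Fam20c encodes the Golgi kinase that phosphorylates secreted proteins, Dmp1 and osteopontin among its known substrates. The authors' deposited table gave it a mean of 13.04 for control and 51.2 for Snai2-/- libraries, and so a ratio of 3.93. Fam20c (chromosome 5, 138754514 to 138810077, plus strand) ranked 47 of 1285 by p, ahead of the other 7, with p = 7.66e-04 and FDR 0.272 in the authors' deposited table. Ifitm5 (chromosome 7, 140948958 to 140950291, minus strand) was listed by the authors' deposited table at 11.8 and 96.1, with a ratio of 8.17 (p = 0.00698, FDR 0.404). Fam20c and Ifitm5 were the 2 members with p below 0.01 in the authors' deposited table, a limit that 28.4% of the listed genes passed. Ifitm5 shares 227 of its 765 exon bases (29.7%) with the predicted gene Gm45717 on the same strand, which was not listed.

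Phex encodes a cell-surface endopeptidase of osteoblasts and osteocytes, whose loss raises the phosphate-wasting hormone FGF23. Alone among the 8 it was lower in Snai2-/- cells, where the authors' deposited table gave 92.2 against 223 for control. That is 2.42 times lower (p = 0.0212, FDR 0.539 in the authors' deposited table). Phex (X chromosome, 157162075 to 157415312, minus strand) shares no exon base with another annotated gene. Loss of Dmp1 leads to a similar phosphate-wasting disease, yet these genes had opposite directions here. The difference between the ratios of Dmp1 and Phex was not tested, because no library values were used.

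**Figure D3:**
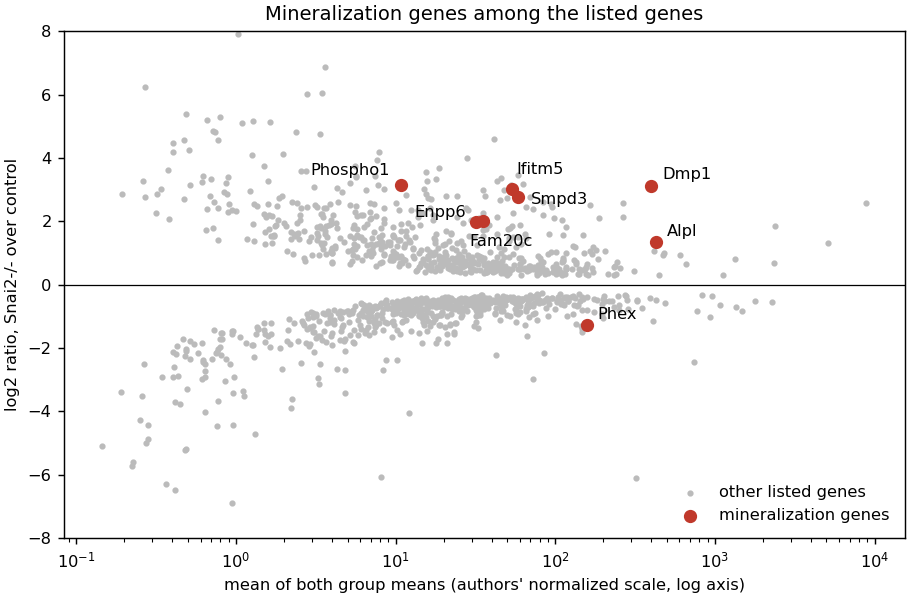
Log2 ratio (Snai2-/- over control) of each listed gene against the mean of both group means on a log axis, in the authors' normalized units. Grey points are other listed genes, without the 7 that have a group at 0.0001, and red points are the 8 mineralization genes, of which 7 lie above 0 with log2 ratios from 1.36 to 3.13 and Phex below at -1.28.

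Around these 8 genes, 12 lists of related genes were examined, with 104 further symbols. Of the 104, 14 were listed (13.5%), 12 higher and 2 lower in Snai2-/- cells, with a median log2 ratio of 1.58, beside 7.69% of all genes tested. These shares have unlike bases, because the 104 were counted whether or not they were tested. The lists were written with earlier results of this table known, so the count is a description. None of the 14 passed an FDR of 0.05.

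Within the matrix vesicle and phosphate list, 0 of the 7 further genes were listed. Among them are Enpp1 and Ank, which supply the inhibitor pyrophosphate, and the phosphate importers Slc20a1 and Slc20a2. Alpl was also the only listed gene of the 4 in its phosphatase family. In the phosphocholine list 2 of 16 further genes were listed. Sgms2, a sphingomyelin synthase and thus a source of the Smpd3 substrate, was listed by the authors' deposited table at 51.6 for control and 182 for Snai2-/-, a 3.52 ratio. Enpp2, which encodes autotaxin and releases choline from lysophosphatidylcholine, was listed by the authors' deposited table at 139 and 31.0, a 0.224 ratio. Enpp2 and its relative Enpp6 thus had opposite directions, while the authors' deposited table gave Enpp5 a ratio of 1.51, and Enpp1, Enpp3, Enpp4 and Enpp7 were not listed.

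Phosphate balance held 2 listed genes of 11 further ones, both higher. Galnt3, which protects FGF23 from cleavage, was listed by the authors' deposited table at 0.937 for control and 5.33 for Snai2-/-, a 5.69 ratio (p = 4.71e-04, FDR 0.263). Vdr, the vitamin D receptor, was listed by the authors' deposited table at 70.3 and 304, a 4.32 ratio. Fgf23 itself and Mepe were not listed. Among 6 further secretory kinase genes Fam198a was listed, the authors' deposited table giving a ratio of 3.06, and Fam20a and Fam20b were not. Among 13 further mineral-binding proteins Spp1 and Fmod, the collagen-binding fibromodulin, were listed, the authors' deposited table giving 2.92 as the ratio of the latter, and Ibsp, Bglap, Mgp and Sparc were not.

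Osteocyte genes were listed in both directions. Of 8 further genes on that list 4 were listed, 3 higher and 1 lower. Pdpn, an early osteocyte membrane glycoprotein, was listed by the authors' deposited table at 1.13 for control and 6.65 for Snai2-/-, a 5.89 ratio. For Ptprz1 and the actin-capping gene Capg the authors' deposited table gave ratios of 2.46 and 1.86. Hyou1, a chaperone of the endoplasmic reticulum, was lower, at a ratio of 0.505 by the authors' deposited table. Sost and Fgf23, products of mature osteocytes, were not listed.

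Of 17 further genes for osteogenesis imperfecta and collagen processing, Col1a1 was listed. Col1a2, which encodes the other chain of type I collagen, and the enzymes and chaperones of collagen on that list were not. The list does not hold every collagen enzyme. Col1a1, a chain of the main collagen of bone, was listed by the authors' deposited table at 2546 and 15244, a 5.99 ratio (FDR 0.582). Relative to that ratio, those of Phospho1, Dmp1, Ifitm5 and Smpd3 were 1.46, 1.44, 1.36 and 1.14 times as large. Those of Enpp6, Fam20c and Alpl were 0.678, 0.656 and 0.428 times as large, and that of Phex 0.069 times. These differences between ratios were not tested, and the order depends on low control means. With 10 added to both means, Phospho1, Ifitm5 and Smpd3 stood at 2.41, 4.87 and 4.48, and Dmp1 at 7.80. None of the other 6 Ifitm genes, among them the interferon-induced Ifitm1, Ifitm2 and Ifitm3, was listed beside Ifitm5. None of the other 6 peptidases of the family of Phex was listed. Of 12 osteoblast transcription factors 1, Dlx3, was listed, the authors' deposited table giving 1.86 for control and 15.2 for Snai2-/-, a ratio of 8.16. Runx2 and Sp7 were not listed.

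**Figure D4:**
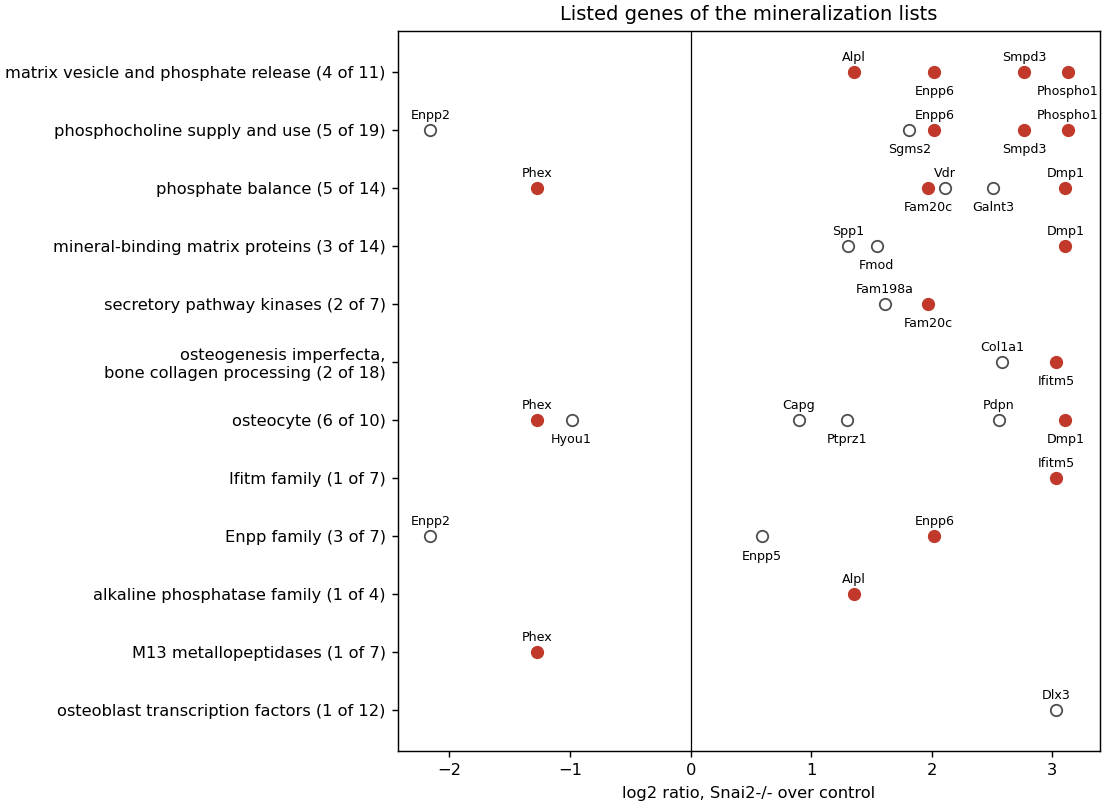
Log2 ratio (Snai2-/- over control) of every listed gene in the 12 lists, with the number listed of the number on each list in brackets. Filled points are the 8 mineralization genes and open points other genes, so a gene on several lists appears on each of them. Open points to the left of 0 are Enpp2 and Hyou1.

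The positions of the 8 genes were compared with that of Snai2 and of other listed genes. Snai2 lies on chromosome 16, and 0 of the 8 genes do. For 7 of the 8 another listed gene lay within 1 Mb, as it did for 76.7% of the 1247 listed genes with a single annotated position. Rap1gap, 11872 bases from Alpl, was listed by the authors' deposited table at a ratio of 4.57. Phospho1 lies within 1 Mb of both Dlx3 and Col1a1, at 699203 and 871457 bases.

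Markers of MSPCs, of other skeletal cells and of cell types that the sort selects against were read from the same table, where a gene that is not listed has no level. Of 12 MSPC markers 1, Angpt1, was listed, the authors' deposited table giving a ratio of 0.736, so the labelled cell type could not be checked further. Among 9 osteoblast markers other than Alpl, Col1a1, Spp1 and Col22a1 were listed and higher, the authors' deposited table giving 6.33 as the ratio of the last. The others, Col1a2, Bglap, Bglap2, Ibsp, Sp7 and Runx2, were not listed. Among 10 chondrocyte markers, cells that also mineralize, 3 were listed and higher, and their means from the authors' deposited table summed to 46.5 for control and 273 for Snai2-/-. Comp, Chad and Matn1 were those 3, while the defining Acan, Col2a1, Sox9 and Col10a1 were not listed. Of 10 osteoclast markers 0 were listed.

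The CD45-, Ter119- and CD31- gates should remove leukocytes with neutrophils, erythroid cells and endothelium. Neutrophil markers had the same direction as most of the mineralization genes. Of 12 neutrophil markers 7 were listed and higher, and their means from the authors' deposited table summed to 186 for control and 820 for Snai2-/-, with ratios from 2.95 for S100a9 to 10.4 for Ltf. The remaining markers, S100a8, Elane, Mpo, Retnlg and Mmp8, were not listed. In the leukocyte, erythroid and endothelial lists, 1 of 8, 1 of 10 and 2 of 10 were listed. For these, Cd48, Car1, Flt4 and Vwf, the authors' deposited table gave ratios of 3.0, 3.0, 2.09 and 0.0598. The pericyte genes Des and Mylk, 2 of 9, were lower, the authors' deposited table giving ratios of 0.406 and 0.727. The part of neutrophils, chondrocytes or a changed share of osteoblasts in the values of the 8 genes was not tested. In these bulk libraries more cells of a type and more RNA per cell cannot be told apart.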

How the data were processed

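RNA of sorted MSPCs from mouse marrow was sequenced in bulk, and the titles gave 3 libraries as control and 3 as Snai2-/-. Per the labels' protocols, cDNA was made with SMART-Seq v4 and libraries with Nextera XT. Trim Galore, HTSeq, edgeR 3.12.0 and mm10 appear in the submitters' processing notes, with no role stated. Neither aligner, annotation nor test is given in the sources used here. Per the file headers, the deposited table gives a p-value, a step-up FDR, a ratio, a signed fold change and a least-squares mean per group. The deposited means are a normalized signal whose unit is not stated. The column of total reads equals 3 times the sum of both means in all 1285 rows (relative tolerance 1e-06), so it gives no depth. The authors' signed fold change is a score that repeats the ratio. The headers' Mutant was taken to be Snai2-/- and their Wildtype to be control.

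No model was fitted, and the authors' p and FDR are quoted. Replicates are not stated to be separate animals, so the p-values may reflect technical spread. The number of genes tested, 16718, was recovered from the listed FDR, p and rank, a step tested on simulated data. The genes, lists and motifs were chosen with earlier results of these data known. Named are the 8 genes, Snai2, listed symbols of the lists and genes beside the 8. Further genes were named only as not listed. Positions are from GENCODE M21 on GRCm38. Limits on FDR, p and mean, a 4-fold limit, pseudocounts of 1 and 10 and lists without the 8 genes were tried. Python 3.11.15, pandas 2.3.3, numpy 2.4.6 and matplotlib 3.10.9 were used.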

Additional observations from a re-analysis of the deposited data

How the results depend on the processing

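None of the 8 genes passed an FDR of 0.05, 0.1 or 0.2, and 3 (Fam20c, Ifitm5 and Dmp1) passed 0.5, as did 42.8% of the listed genes. The 7 genes with a higher mean became 3 at p below 0.02 and 2 at p below 0.01, limits that 48.9% and 28.4% of the listed genes passed. A minimum mean of 10 in at least 1 group left 7, but Phospho1 passed it only through Snai2-/-, where its mean was higher. The share of listed genes was not counted for that limit, nor for 4-fold differences with pseudocounts. All 8 differed 2-fold, also with pseudocounts of 1 and 10, as did 45.9% of the listed genes without a pseudocount. Without a pseudocount 5 differed 4-fold, as did 19.6% of the listed genes, but that count did not hold with pseudocounts. Enpp6 fell below 4-fold with a pseudocount of 1, at 3.86. With 10 it stood at 2.78, and Phospho1 fell below 4-fold as well. Of the symbols on the lists, 22 were listed with the 8 genes and 14 without them. A pseudocount of 10 lowered the ratio of Phospho1 from 8.74 to 2.41, of Ifitm5 from 8.17 to 4.87 and of Smpd3 from 6.80 to 4.48, while Dmp1 stayed at 7.80, and no direction changed. Chosen after seeing the data were the sums with overlapping genes, 3.0 for Phospho1 with Abi3 and 3.33 for Smpd3 with Prmt7. The former leaves out Zfp652, and the latter adds all of Prmt7 although the pair shares 4.72% of Smpd3 exon bases. Neither sum corrects a ratio for the overlap. No paired analysis was possible because only group means were used. Left-out replicates and other normalizations were not run for the same reason, and the depth is unknown.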
